A study of Rattus norvegicus and Mus musculus with 25 samples.

Results

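In rat heart muscle cells in culture, 4 libraries were compared: 2 with overexpression of Vldlr, the gene of the very low density lipoprotein receptor (Vldlr OE replicates 1 and 2), and 2 of the group labelled Control. They are 4 of the 16 rat libraries and of the 25 libraries of the series, and 4 of the 12 in their expression table. The cells were ventricular cardiomyocytes of Sprague-Dawley (SD) rats 1 day old, pre-plated to take away cells that attach faster. The protocol names 2 adeno-associated viruses of serotype 9, given for 72 h: AAV9-cTnT-Vldlr, in which the cardiac troponin T promoter drives Vldlr, and AAV9-CMV-GFP, in which the cytomegalovirus promoter drives green fluorescent protein. The Control label itself names no virus, so that these 2 libraries received AAV9-CMV-GFP is a reading of the protocol. Their columns are headed Blank and were matched to Control because no other group was left for them; they are called Control columns 1 and 2 here, with no replicate number from the labels. If these columns had no virus, an effect of Vldlr cannot be told apart from one of the virus. If they had AAV9-CMV-GFP, it cannot be told apart from effects of the promoter or of green fluorescent protein. The labels give neither the species nor the isoform of the delivered Vldlr, nor whether a group's libraries were grown apart. The p-values therefore reflect variation from library to library, part or all of which may be technical.

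Vldlr is a cell-surface receptor of the low density lipoprotein (LDL) receptor family, abundant in heart, skeletal muscle and fat. It takes up triglyceride-rich lipoproteins that carry apolipoprotein E, working beside lipoprotein lipase. It is also a receptor for reelin, a secreted protein of the extracellular matrix, and passes that signal on through the adaptor Dab1 and Src family kinases. The series title names reelin and thrombospondin-1 as ligands of the receptor in cardiomyocyte proliferation.

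Levels are in counts per 1000000 (CPM), and a difference is a log2 fold change on the scale of log2(CPM + 1), Vldlr OE minus Control, with its standard error. Of the 28909 genes of the table, 13426 had at least 1 CPM in 2 or more of the 4 libraries and were tested. The last gene to pass this filter had 1.00192 CPM in its second-highest library (AABR07031734.13), and the first to miss it had 0.999736 CPM (Fam124a). Differences were tested with limma over all 12 libraries of the table, and p-values were adjusted by the Benjamini-Hochberg method over the 13426 genes.

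The libraries differed in ways the 2 groups do not account for. Over the 10984 genes averaging 5 CPM or more, the median absolute log2 difference was 0.208 between the Vldlr OE replicates and 0.114 between the Control columns. It was 0.103 between Vldlr OE replicate 2 and Control column 1, so that these libraries of different groups were nearer to each other than either was to its own partner. The 13 genes of the mitochondrial genome summed to 48321 and 49154 CPM in Control column 1 and Vldlr OE replicate 2, and to 32704 and 30906 CPM in Control column 2 and Vldlr OE replicate 1. The 56 ribosomal protein genes summed to 41178 CPM in Vldlr OE replicate 1 and to 30222 to 33926 CPM in the other 3. The marker lists of cardiomyocytes, fibroblasts, endothelium, smooth muscle and pericytes, macrophages and epicardium had median log2 fold changes from -0.12 to -0.04. The sums of the cardiomyocyte markers were 27878 and 29310 CPM in Control and 26162 and 27507 CPM in Vldlr OE, with Ttn not used here, and those of the fibroblast markers were 35986 and 40409 against 34134 and 38737 CPM. Fibroblast RNA was thus present in each library of these cultures, and the part of any of these differences in the results was not tested.

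Vldlr itself was measured at 576.6 and 379.0 CPM in Control columns 1 and 2 and at 656.5 and 888.7 CPM in Vldlr OE replicates 1 and 2. Both overexpressing libraries were above both Control libraries. The group means were 478 ± 140 and 773 ± 164 CPM (SD, n = 2 each), a ratio of 1.62. The log2 fold change was 0.71 ± 0.18, with a 95% interval from 0.30 to 1.12, and it did not pass the test over all genes (limma, adjusted p = 0.958). In the 8 other libraries of the table, the si-Vldlr knockdown libraries among them, Vldlr was at 171 to 400 CPM. Control column 1 was thus also above every library outside this comparison. Without Control column 1 the log2 fold change of Vldlr was 1.01, and it passed (limma, adjusted p = 0.0334). Without Control column 2 it was 0.41 (limma, adjusted p = 0.999988). In bulk RNA, more cells expressing a gene and more RNA of it per cell cannot be told apart.

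A single gene of 13426 passed the test, 0.00745% of those tested. LOC100910669, a predicted gene, was listed at 0 in Control columns 1 and 2, and reached 12.95 CPM in Vldlr OE replicate 1 and 11.84 CPM in replicate 2 (limma, adjusted p = 2.09e-05). In the rest of the table it was listed at 0 in both si-Control_v libraries, stood at 2.36 and 2.26 CPM in the si-Vldlr libraries, and at 11.7 to 18.1 CPM in the 4 libraries given PBS or Reelin. Control and si-Control_v were therefore at 0 for this gene, while the PBS libraries, at 11.7 and 18.1 CPM, were not. It was 1 of 8 genes listed at 0 in both libraries of a group and at 5 CPM or more in both of the other, and 7 of these 8 did the same between the 2 libraries of a single group somewhere in the table. The others at 0 in Control were LOC103689949, LOC103693776, LOC103694874 and Mapk7, a mitogen-activated protein kinase, and those at 0 in Vldlr OE were Gstm5, LOC103690006 and LOC103692166. The number of called genes moved with single libraries: 262 without Vldlr OE replicate 2, of which 236 were lower, 81 without Control column 1, 4 without Control column 2, and 2 when Vldlr OE replicate 1 was left out. LOC100910669 was called in each of these. A passage between 0 and at least 5 CPM was seen in 32 genes between the Control columns and in 30 between the Vldlr OE replicates.

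Before adjustment 614 genes had p under 0.05, of which 185 (1.38% of those tested) were higher in Vldlr OE and 429 (3.20%) lower. Both Vldlr OE libraries were above both Control libraries in 1259 genes (9.38%) and below both in 2083 (15.5%). The fold change was negative in 7705 genes (57.4%), and its median over all genes was -0.03. With another scaling of the libraries the balance moved: by median-of-ratios size factors 284 genes with p under 0.05 were higher and 279 lower, and by quantile normalization 286 and 267. The genes described next therefore stand beside a background that leaned toward lower values, and none of them passed the test with all 4 libraries.

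**Figure D1:**
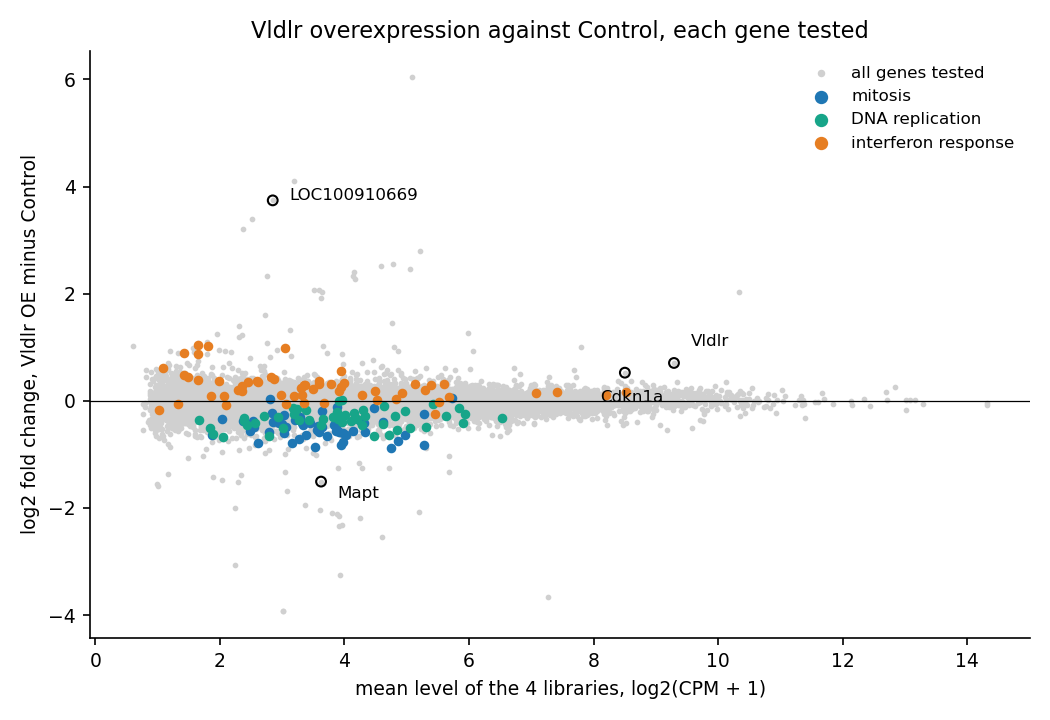
Log2 fold change of each of the 13426 genes tested (vertical) against its mean level in the 4 libraries as log2(CPM + 1) (horizontal). Most mitosis and DNA replication genes lie below 0 and most interferon response genes above it. LOC100910669, Vldlr, Cdkn1a and Mapt are ringed, and of these LOC100910669 passed the test.

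The genes of smallest p on the higher side were taken among those that were well expressed and did not overlap. Cdkn1a, which codes for the cyclin-dependent kinase inhibitor p21, was at 337 and 258 CPM in Control and at 441 and 410 CPM in Vldlr OE. The log2 fold change of Cdkn1a was 0.53 ± 0.12 (limma, adjusted p = 0.958). It was 0.72 without Control column 1, where it passed (adjusted p = 0.0288), and 0.33 without Control column 2. Its level was 102 to 127 CPM in the other 8 libraries, below all 4 libraries of this comparison, Control included. Ephx1, the microsomal epoxide hydrolase, had the same order: 100 and 66.7 CPM in Control, 132 and 118 CPM in Vldlr OE, and 26.3 to 36.3 CPM elsewhere in the table. Its log2 fold change of 0.61 was 0.90 without Control column 1, where it passed (limma, adjusted p = 0.0124), and 0.32 without Control column 2. Gstm3, a glutathione S-transferase, was at 15.1 and 15.0 CPM in Control and at 31.2 and 22.3 CPM in Vldlr OE. Gstm5, of the same gene family, went the other way. It was at 14.6 and 13.9 CPM in Control and listed at 0 in both Vldlr OE libraries. Whether reads were split differently between Gstm3 and Gstm5 was not tested. Mmp9, a matrix metalloproteinase, had 19.1 and 16.9 CPM against 26.6 and 29.9 CPM. Thy1, a surface glycoprotein of fibroblasts and one of their markers here, was at 21.4 and 18.2 CPM against 26.1 and 31.6 CPM. Of the 12 fibroblast markers tested, 4 had a positive and 8 a negative fold change. Other genes picked by the same rule were Ier5l, Sdf2l1, Scarf1, Clec3b and Aard, with log2 fold changes of 0.35 to 0.70. Gstm3 and Ier5l passed without Vldlr OE replicate 2 (limma, adjusted p = 0.0460 and 0.0262).

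On the lower side Mapt, the gene of the microtubule-associated protein tau, had the smallest p. It was at 16.3 and 17.8 CPM in Control and at 3.86 and 7.29 CPM in Vldlr OE, against 19.4 to 26.2 CPM in the other 8 libraries. Both overexpressing libraries were thus below every other library of the table, by a log2 fold change of -1.51 ± 0.21 from Control, which did not pass (limma, adjusted p = 0.194). Mapt did pass without Control column 1 (log2 fold change -1.57, adjusted p = 0.0434), without Vldlr OE replicate 2 (-1.89, adjusted p = 0.00420) and with the column number as a block (adjusted p = 0.0384), where it was called beside LOC100910669. C4a, a gene of complement component 4, was at 31.0 and 21.8 CPM in Control and at 3.30 and 0.861 CPM in Vldlr OE, but ranged from 0 to 84.8 CPM elsewhere. Complement C4 has near-identical copies, so reads could be split between them. Smyd1, a muscle lysine methyltransferase needed for sarcomere assembly, was at 96.9 and 107 CPM against 72.6 and 82.3 CPM. Cdon, a cell-surface receptor of hedgehog signalling and muscle differentiation, was at 80.0 and 77.1 CPM against 59.4 and 59.9 CPM. The other 8 of these 12 genes were Cenpc and Hjurp, which act at centromeres, Pds5b, of sister chromatid cohesion, Wdhd1 and Mcm4, of replication forks, Dnmt1, which copies DNA methylation, the chromatin protein gene Atad2 and the deubiquitinase gene Usp37. Cenpc was at 18.5 and 19.0 CPM in Control and at 13.7 and 13.5 CPM in Vldlr OE, a log2 fold change of -0.44 ± 0.09 (limma, adjusted p = 0.958). Hjurp was at 8.71 and 16.7 CPM against 5.59 and 6.62 CPM, and at 20.5 to 28.4 CPM in the other 8 libraries. Atad2, Hjurp, Mcm4 and Dnmt1 passed without Control column 1, with adjusted p of 0.00459 to 0.0403 (limma).

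**Figure D2:**
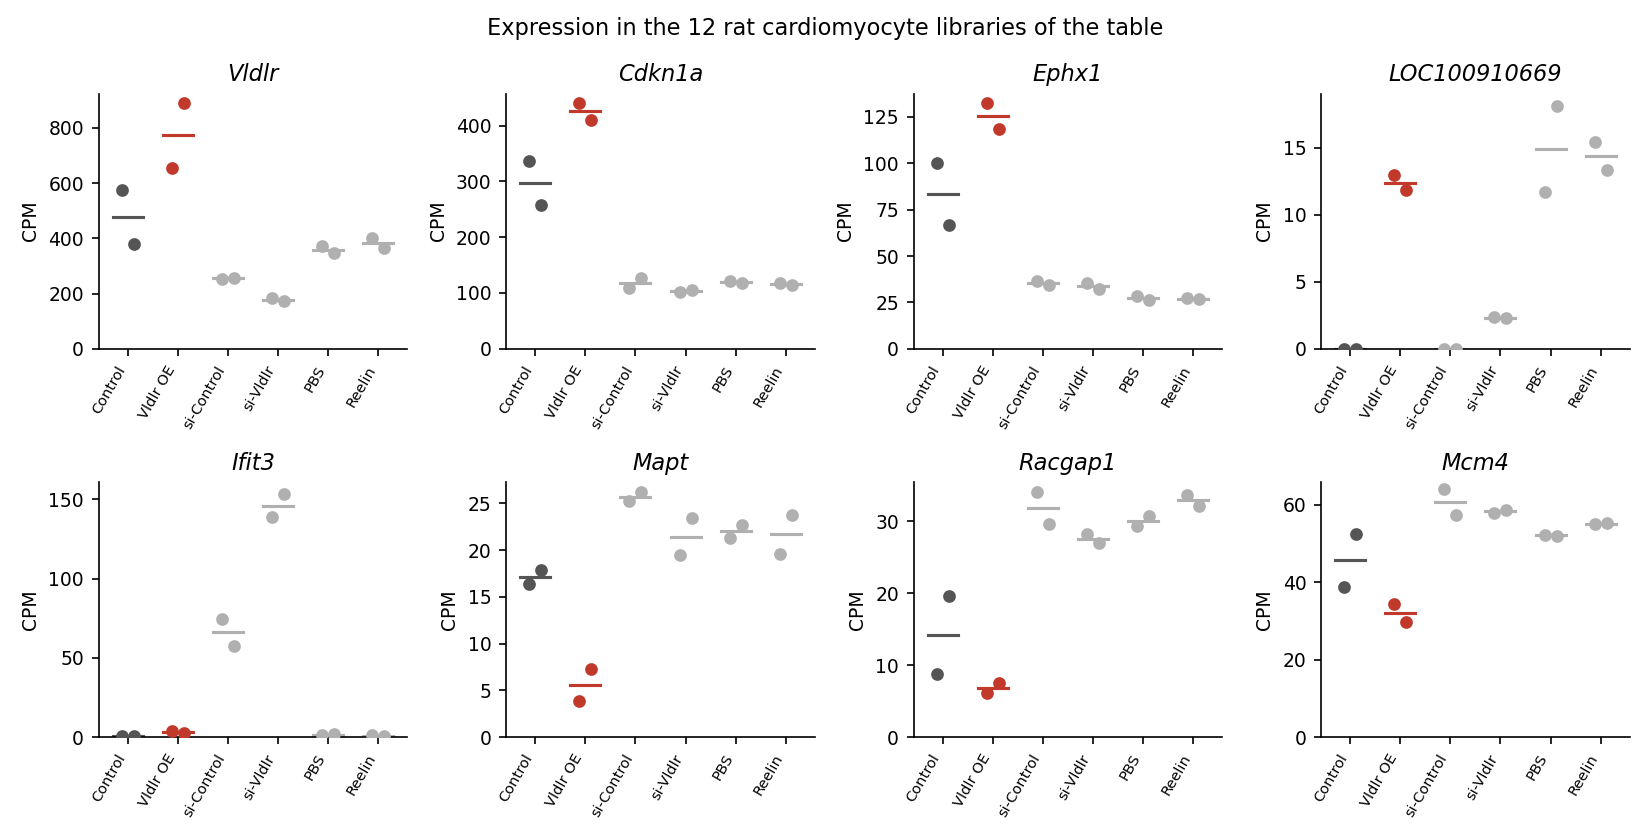
CPM of 8 genes in the 12 libraries of the table, 2 points a group, with a line at the group mean. Vldlr, Cdkn1a and Ephx1 are highest in Vldlr OE with Control next, Mapt, Racgap1 and Mcm4 are lowest in Vldlr OE, and LOC100910669 and Ifit3 are as high or higher in groups outside this comparison.

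Genes of mitosis and cytokinesis were the list with the lowest median. Of the 56 on the list 54 were tested, and 52 of them had a negative fold change, with a median of -0.49 against -0.03 over all genes. None passed the test; 25 had p under 0.05 and were lower, where 3.20% of all genes were, and 20 did not overlap between the groups, where 15.5% of all genes were lower in this way. The 2 members with a positive value were Bub3 and Cdc25c. The Control columns were far apart for this list, and Control column 1 lay with the Vldlr OE libraries: the list summed to 594 and 1116 CPM in Control columns 1 and 2 and to 605 and 536 CPM in Vldlr OE replicates 1 and 2. All 4 were below the other 8 libraries of the table, which summed to 1562 to 2086 CPM.

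Racgap1, a regulator of the contractile ring, was at 8.81 and 19.6 CPM in Control and at 6.12 and 7.53 CPM in Vldlr OE, a log2 fold change of -0.87 ± 0.26. Mad2l1, of the spindle assembly checkpoint, was at 8.81 and 13.2 CPM against 6.77 and 5.71 CPM. Ckap2l, a spindle protein, was at 4.53 and 9.23 CPM against 3.38 and 3.29 CPM. In each of these the Vldlr OE libraries were close together and Control column 2 was farther from them than column 1. Anln, the actin-binding protein anillin of the cleavage furrow, was at 27.6 and 47.7 CPM against 21.6 and 24.1 CPM. The adjusted p was 0.958 for each of the 4 (limma). Without Control column 1 Racgap1, Ckap2l and Anln passed, with adjusted p of 0.00459 to 0.0257.

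The mitosis list therefore depended on which Control library was used. Without Control column 1 its median was -0.97 and 28 of its members were called among 81 genes called in all. Without Control column 2 its median was -0.05 and none of its members was called. The medians without Vldlr OE replicate 1 and without replicate 2 were -0.57 and -0.43.

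DNA replication genes had a like pattern with smaller values. Of 48 members 46 had a negative fold change (the exceptions were Gins2 and Rpa3), the median was -0.33, 16 had p under 0.05 and were lower, beside 3.20% of all genes, and 18 did not overlap and were lower, beside 15.5%. The list summed to 869 and 1238 CPM in Control and to 911 and 745 CPM in Vldlr OE, so that Control column 1 lay between the overexpressing libraries. Mcm4, a subunit of the replicative helicase, was at 38.8 and 52.4 CPM in Control and at 34.3 and 29.7 CPM in Vldlr OE. Pole2, a subunit of DNA polymerase epsilon, was at 3.49 and 3.50 CPM against 2.09 and 1.78 CPM, and here the Control columns were alike. Dnmt1 was at 58.0 and 76.8 CPM against 49.0 and 50.7 CPM, and Ticrr, which helps start replication, at 3.15 and 5.14 CPM against 2.56 and 1.78 CPM. Without Control column 1 the median was -0.59 and 5 members were called; without Control column 2 it was -0.10.

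Of 19 tested members of the E2F, RB and DREAM list, whose proteins switch cell cycle genes on and off, 16 had a negative fold change, with a median of -0.27. The median was -0.10 without Control column 2 and -0.09 among genes of at least 5 CPM. Lin9 and Lin54, subunits of the MuvB core of the DREAM complex, were lower in both Vldlr OE libraries. Lin9 was at 4.44 and 5.81 CPM in Control and at 3.28 and 3.00 CPM in Vldlr OE, and Lin54 at 17.6 and 20.9 CPM against 13.3 and 14.1 CPM. The 3 other members with p under 0.05 were Rbl1, E2f7 and E2f8, which makes 5 of 19 lower, beside 3.20% of all genes. The summed level of the list was 454 and 489 CPM in Control and 455 and 417 CPM in Vldlr OE, so that the sums of the groups overlapped.

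Upstream of these, the 12 cyclins and kinases of the G1 phase had a median of -0.08. Cdk2 was at 20.4 and 25.5 CPM in Control and at 18.9 and 18.0 CPM in Vldlr OE, the one member with p under 0.05. Ccnd1, the gene of cyclin D1, was at 319 and 297 CPM against 418 and 357 CPM. The median of the G1 list was 0.01 without Control column 2. Of 7 tested kinase inhibitor genes 4 had a positive and 3 a negative fold change, with a median of 0.10, or -0.15 without Vldlr OE replicate 1. Cdkn1a was the one with p under 0.05. Cdkn2b was higher in both Vldlr OE libraries, at 29.6 and 64.6 CPM in Control and at 90.8 and 77.8 CPM in Vldlr OE, with the Control values themselves far apart. Cdkn2a overlapped between the groups, at 5.22 and 3.57 CPM against 8.44 and 5.07 CPM. So did Cdkn2c, with 5.20 and 10.1 CPM against 6.30 and 4.32 CPM, a log2 fold change of -0.41 ± 0.25. Among 26 tested targets of the tumour suppressor p53, 20 had a positive fold change, with a median of 0.10, and 3 had p under 0.05, all higher, beside 1.38% of all genes. These were Gdf15, a stress-induced cytokine, at 60.3 and 41.1 CPM against 78.9 and 73.4 CPM, Phlda3, an inhibitor of Akt signalling, at 411 and 395 CPM against 546 and 449 CPM, and Mdm2, the ubiquitin ligase of p53, at 115 and 87.7 CPM against 123 and 125 CPM. Without Control column 2 the median of the p53 targets was 0.02.

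Promoters of the list members were searched for short motifs, whatever the fold change of the member. The counts therefore describe the lists and not the difference between Vldlr OE and Control. RefSeq promoter windows on the build GRCr8, from 250 bases before to 50 bases after the start, were found by symbol for 47 of the 54 mitosis genes, 41 of the 48 DNA replication genes, 45 of the 56 interferon response genes and 9586 of all 13426 genes tested. The searched motifs were TTTGAA, the core of the cell cycle genes homology region (CHR) to which the DREAM complex is known to bind; CCAAT, the box bound by NF-Y; GGCGGGAA, an E2F site; and GAAANNGAA, the core of the interferon-stimulated response element (ISRE). Each was searched on both strands, and no motif contains another. TTTGAA was present in 33 of 47 mitosis promoters (70.2%), in 3 of 41 DNA replication promoters (7.32%) and in 11.2% of the promoters of genes tested. It was in 18.1% of the 27457 promoters of the table, with 1 window a symbol. CCAAT was in 74.5% of mitosis and 65.9% of DNA replication promoters, against 37.5% of those of genes tested and 37.7% of the table. GGCGGGAA was in 4.26% and 17.1% of these, against 3.93% and 2.02%. A match describes the letters in this window and is not shown to be a site in use.

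The windows of 3 of the mitosis genes with the smallest p are shown because they hold TTTGAA near the start site. Capitals mark TTTGAA or its reverse complement and, in Ckap2l, also the reverse complement of CCAAT. Each runs 5′ to 3′ along the gene.
Mad2l1, chr4:97236259-97236558, plus strand: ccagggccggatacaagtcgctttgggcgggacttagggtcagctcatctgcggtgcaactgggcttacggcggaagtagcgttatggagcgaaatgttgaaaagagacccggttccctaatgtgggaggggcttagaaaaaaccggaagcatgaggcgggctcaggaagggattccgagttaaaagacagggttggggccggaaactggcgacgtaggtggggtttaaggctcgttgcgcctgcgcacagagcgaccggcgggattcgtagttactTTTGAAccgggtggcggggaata
Ckap2l, chr3:136977454-136977753, minus strand: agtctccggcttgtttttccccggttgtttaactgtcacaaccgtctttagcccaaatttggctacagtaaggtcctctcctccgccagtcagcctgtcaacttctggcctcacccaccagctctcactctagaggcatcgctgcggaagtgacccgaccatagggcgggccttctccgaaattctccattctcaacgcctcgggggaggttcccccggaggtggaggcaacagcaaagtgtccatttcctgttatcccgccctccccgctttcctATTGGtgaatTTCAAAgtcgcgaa
Anln, chr8:29197464-29197763, minus strand: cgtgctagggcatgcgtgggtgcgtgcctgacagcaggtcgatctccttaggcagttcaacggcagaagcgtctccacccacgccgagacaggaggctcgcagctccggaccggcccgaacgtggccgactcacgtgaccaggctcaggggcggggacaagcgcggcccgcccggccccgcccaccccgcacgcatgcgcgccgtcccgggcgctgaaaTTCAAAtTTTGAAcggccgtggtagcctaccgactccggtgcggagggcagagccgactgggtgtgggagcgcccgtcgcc
The match begins at position 28 in Mad2l1, counting the start as 1 and the base before it as -1. In Ckap2l the matches begin at 27 for CCAAT and at 37 for TTTGAA. In Anln 2 matches of opposite strands begin at -31 and -24.

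**Figure D3:**
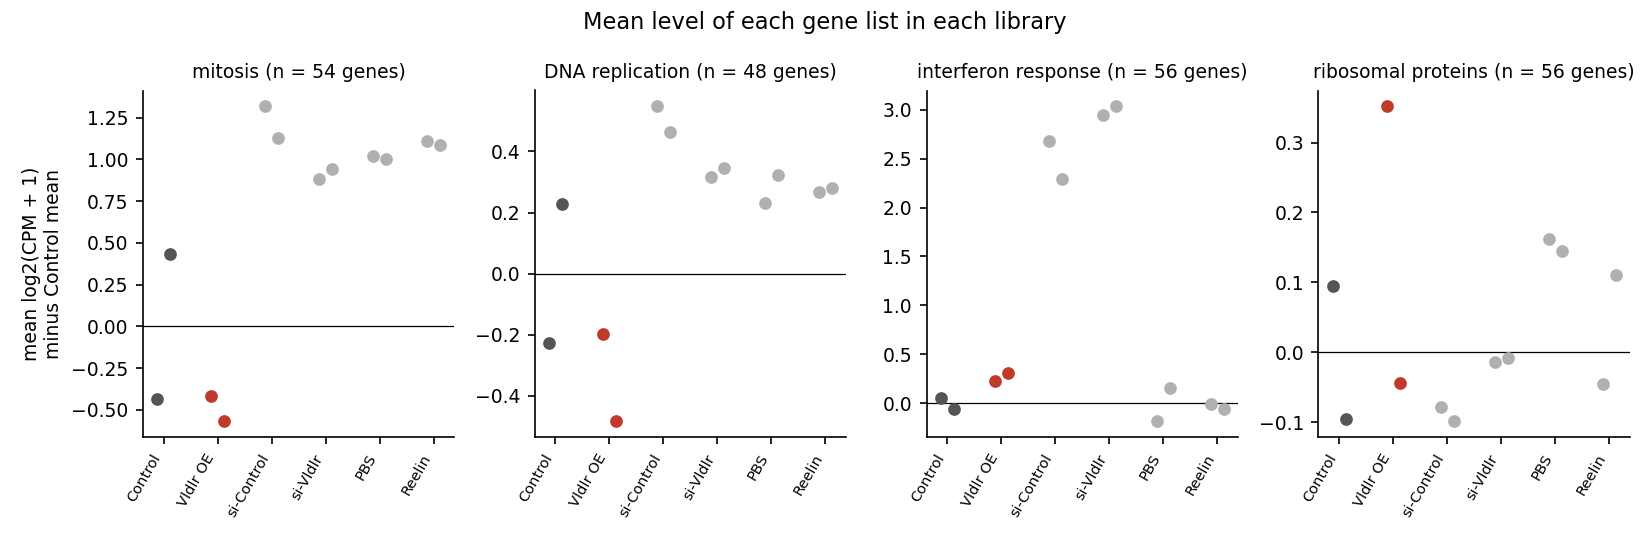
Mean of log2(CPM + 1) over each list's tested genes, minus the Control mean, in each of the 12 libraries, 2 points a group. For mitosis and DNA replication Control column 1 lies beside Vldlr OE and all other groups lie above; for the interferon response both Vldlr OE points are above both Control points, and the si-Control and si-Vldlr points are highest.

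Interferon-stimulated genes, which cells turn on in answer to viral nucleic acid, were the list with the highest median of those described. Of 56 tested members 48 had a positive fold change, with a median of 0.23 against -0.03 over all genes. None passed; 8 had p under 0.05 and were higher, where 1.38% of all genes were, and in 30 both Vldlr OE libraries were above both Control libraries, where 9.38% of all genes were. The mean of the list on the log2 scale, relative to Control, was 0.06 and -0.06 in Control columns 1 and 2 and 0.23 and 0.31 in Vldlr OE replicates 1 and 2, so that the groups did not overlap. The summed level was 1637 and 1438 CPM in Control and 1825 and 1655 CPM in Vldlr OE, nearly touching between Control column 1 and Vldlr OE replicate 2. In the other 8 libraries the list's mean ranged from -0.19 to 3.04.

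The members with the smallest p were mostly at low levels. Ifit3, an RNA-binding antiviral protein gene, was at 1.07 and 0.973 CPM in Control and at 3.89 and 2.58 CPM in Vldlr OE, a log2 fold change of 1.05 ± 0.21 (limma, adjusted p = 0.958), against up to 153 CPM elsewhere in the table. Irf7, the transcription factor that amplifies the interferon response, was at 11.5 CPM in both Control columns and at 15.6 and 19.2 CPM in Vldlr OE, against up to 481 CPM elsewhere. Both Vldlr OE libraries were thus above Control but far below the highest libraries. Cxcl10, a chemokine gene, was at 0.838 and 1.46 CPM against 4.52 and 1.73 CPM. Tap1, a subunit of the peptide transporter for antigen presentation, was at 31.4 and 29.4 CPM against 37.5 and 38.2 CPM, and Psmb9, a subunit of the immunoproteasome, at 8.82 and 10.1 CPM against 14.0 and 11.1 CPM. The other 3 with p under 0.05 were Ifi27l2b, Gbp2 and Nmi. Among sensors of nucleic acid, Ifih1, whose protein detects long double-stranded RNA, was at 11.7 and 10.7 CPM in Control and at 12.8 and 15.6 CPM in Vldlr OE. Ifit3 and Cxcl10 each reached 1 CPM in a single Control column, so both met the filter only through the Vldlr OE libraries. Their log2 fold changes were 1.28 and 1.38 without Vldlr OE replicate 2, and 0.83 and 0.36 without replicate 1. The median of the interferon list was 0.17 to 0.29 with each library left out.

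Of 45 interferon response genes with a promoter window, 31 (68.9%) held GAAANNGAA, against 7.03% of those of genes tested and 9.50% of the table. The windows of Ifit3 and Tap1, 2 members with p under 0.05, are shown for the position of this motif. Capitals mark its reverse complement.
Ifit3, chr1:241527076-241527375, plus strand: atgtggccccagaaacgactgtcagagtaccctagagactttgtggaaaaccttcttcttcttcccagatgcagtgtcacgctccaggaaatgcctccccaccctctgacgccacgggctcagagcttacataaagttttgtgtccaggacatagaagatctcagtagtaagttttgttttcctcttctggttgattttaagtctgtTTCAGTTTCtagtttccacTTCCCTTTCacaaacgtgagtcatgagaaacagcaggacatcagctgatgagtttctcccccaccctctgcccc
Tap1, chr20:4668494-4668793, minus strand: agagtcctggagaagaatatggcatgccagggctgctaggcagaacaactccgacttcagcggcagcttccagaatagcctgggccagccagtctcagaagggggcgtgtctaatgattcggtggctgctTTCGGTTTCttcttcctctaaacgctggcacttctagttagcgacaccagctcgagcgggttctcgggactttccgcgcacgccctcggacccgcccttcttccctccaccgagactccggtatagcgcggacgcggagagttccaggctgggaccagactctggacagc
In Ifit3 the motif occurs in 2 places just before the start, beginning at -43 and -24, and in Tap1 it occurs once, at -120.

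The receptor's own family and partners differed little between the groups. Of 14 tested members of the LDL receptor family, Vldlr was the only one with p under 0.05, and the median was -0.08, or 0.03 without Control column 2 and 0.0042 when Vldlr OE replicate 1 was left out. Lrp8, the other reelin receptor, was at 24.7 and 23.8 CPM in Control and at 21.5 and 23.9 CPM in Vldlr OE. Lrp6, a co-receptor of Wnt signalling, was at 94.2 and 98.9 CPM against 65.7 and 95.1 CPM, low in replicate 1 alone. It passed without replicate 2 (limma, adjusted p = 0.0344). Reln was low throughout, at 1.56 and 2.06 CPM in Control and at 1.12 and 4.18 CPM in Vldlr OE. Thbs1 was abundant, at 3558 and 2998 CPM against 3127 and 3557 CPM, where the groups overlapped and all 4 libraries were above the 1322 to 2638 CPM of the other 8. None of 20 tested ligands and regulators of the receptor had p under 0.05, and their median was 0.03, or -0.04 without Vldlr OE replicate 1. Angptl4, an inhibitor of lipoprotein lipase, was at 3.34 and 1.54 CPM against 4.15 and 4.68 CPM.

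Downstream of the receptor, Dab1 did not pass the filter on low values, at 0.127 and 0.0768 CPM in Control and at 0.119 and 0 CPM in Vldlr OE. Dab2, its relative, was at 89.2 and 84.4 CPM against 81.2 and 93.4 CPM. Of 29 tested genes of reelin signalling 22 had a negative fold change, with a median of -0.05, and none had p under 0.05. In 5 members both Vldlr OE libraries were below both Control libraries, Pik3r1, Pik3ca, Pik3cb and Pafah1b1 among them; 5 of 29 is near the 15.5% of all genes. Pik3r1, a regulatory subunit of phosphoinositide 3-kinase, was at 50.5 and 56.8 CPM against 44.0 and 47.0 CPM. No thrombospondin partner of the 12 tested had p under 0.05 or separated the groups. Among these Calr, which codes for calreticulin, was at 1202 and 1102 CPM against 1344 and 1105 CPM.

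Lists of lipid genes, which bear on the receptor's role in lipoprotein uptake, had medians near that of all genes. The 29 tested genes of lipid uptake and storage had a median of -0.01, or 0.03 by median-of-ratios scaling, and those of fatty acid oxidation (34 tested) of 0.02, or -0.02 without Control column 1. In the oxidation list Acot2, a mitochondrial acyl-CoA thioesterase, was the one member with p under 0.05, at 14.4 and 13.7 CPM against 18.8 and 17.2 CPM. Both Vldlr OE libraries were above both Control libraries in 6 oxidation genes and below both in 2, beside 9.38% and 15.5% of all genes. Of 37 genes of sterol and fatty acid synthesis 30 had a negative fold change, with a median of -0.07 and none with p under 0.05. In 10 of them both Vldlr OE libraries were below both Control libraries and in 1 above, beside 15.5% and 9.38% of all genes. Fads1, a fatty acid desaturase, was at 143 and 151 CPM in Control and at 135 and 133 CPM in Vldlr OE.

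Most heart muscle genes had negative values, as did 57.4% of all genes. Of 31 tested sarcomere genes 24 had a negative fold change, with a median of -0.12, and 2 had p under 0.05 and were lower, beside 3.20% of all genes. Myom1, the M-band protein myomesin, was at 333 and 319 CPM in Control and at 265 and 296 CPM in Vldlr OE, and Nrap, a protein of myofibril assembly, at 217 and 205 CPM against 160 and 196 CPM. Tnnt2, the cardiac troponin T gene after whose promoter the vector is named, was at 2440 and 2483 CPM against 2386 and 2289 CPM. Of 33 genes of calcium handling and ion channels 29 had a negative value, with a median of -0.19. Among the 33, 1 was lower with p under 0.05 and 5 were lower without overlap, near the 3.20% and 15.5% of all genes. Slc8a1, the sodium-calcium exchanger, was at 290 and 360 CPM against 212 and 300 CPM, and Kcnj5, a potassium channel, at 29.9 and 30.8 CPM against 23.7 and 27.4 CPM. In all but Tnnt2 replicate 1 was the lower of the overexpressing libraries. Without replicate 1 the median of the calcium and channel list was -0.06, and without replicate 2 it was -0.28.

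Among 28 cardiac transcription factors 23 had a negative value, with a median of -0.12 and 3 lower with p under 0.05, beside 3.20% of all genes. The median was -0.21 without Control column 1, -0.05 without Control column 2, and -0.06 when Vldlr OE replicate 1 was left out. Tbx5, a T-box factor of heart development, was at 12.05 and 11.57 CPM in Control and at 8.981 and 8.998 CPM in Vldlr OE, even within each group. Tbx20, another T-box factor, was at 189 and 187 CPM against 142 and 180 CPM, and Myocd, the coactivator myocardin, at 42.4 and 46.6 CPM against 30.6 and 42.0 CPM. Tbx20 and Myocd, both lowest in replicate 1, passed without replicate 2 (limma, adjusted p = 0.0385 and 0.0460). Gata4, by contrast, was at 283 and 302 CPM against 294 and 295 CPM, and overlapped.

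Stress and housekeeping lists had small positive medians. Of 39 tested genes of endoplasmic reticulum (ER) stress 34 were positive, with a median of 0.09. That median was 0.01 without Vldlr OE replicate 1 and 0.15 without replicate 2. Sdf2l1, an ER chaperone partner, was at 37.5 and 35.5 CPM in Control and at 49.5 and 45.2 CPM in Vldlr OE, and Ddit3, the stress-induced transcription factor CHOP, at 29.2 and 30.9 CPM against 37.2 and 35.1 CPM. Of 56 ribosomal protein genes 54 were positive, with a median of 0.16, but this came from replicate 1: without it the median was -0.04, and without replicate 2 it was 0.35. Rpl29 was at 586 and 557 CPM against 808 and 650 CPM. It passed without replicate 2, as did Rpl10a (limma, adjusted p = 0.0485 and 0.0322). Members of the immediate early list had p under 0.05 in opposite directions: Klf6 was at 44.5 and 42.8 CPM against 32.8 and 36.2 CPM, and Klf10 at 22.3 and 23.2 CPM against 28.2 and 27.2 CPM. The lists of NF-kB inflammation (32 tested, median 0.05), innate sensing (20 tested, 0.08), antigen processing (13 tested, 0.15) and TGF-beta and matrix (46 tested, -0.01, or 0.02 by median-of-ratios scaling and 0.03 without Vldlr OE replicate 1) held no called gene. The antigen processing median was -0.01 without Vldlr OE replicate 1, and that of NF-kB inflammation was -0.04 without Control column 2.

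**Figure D4:**
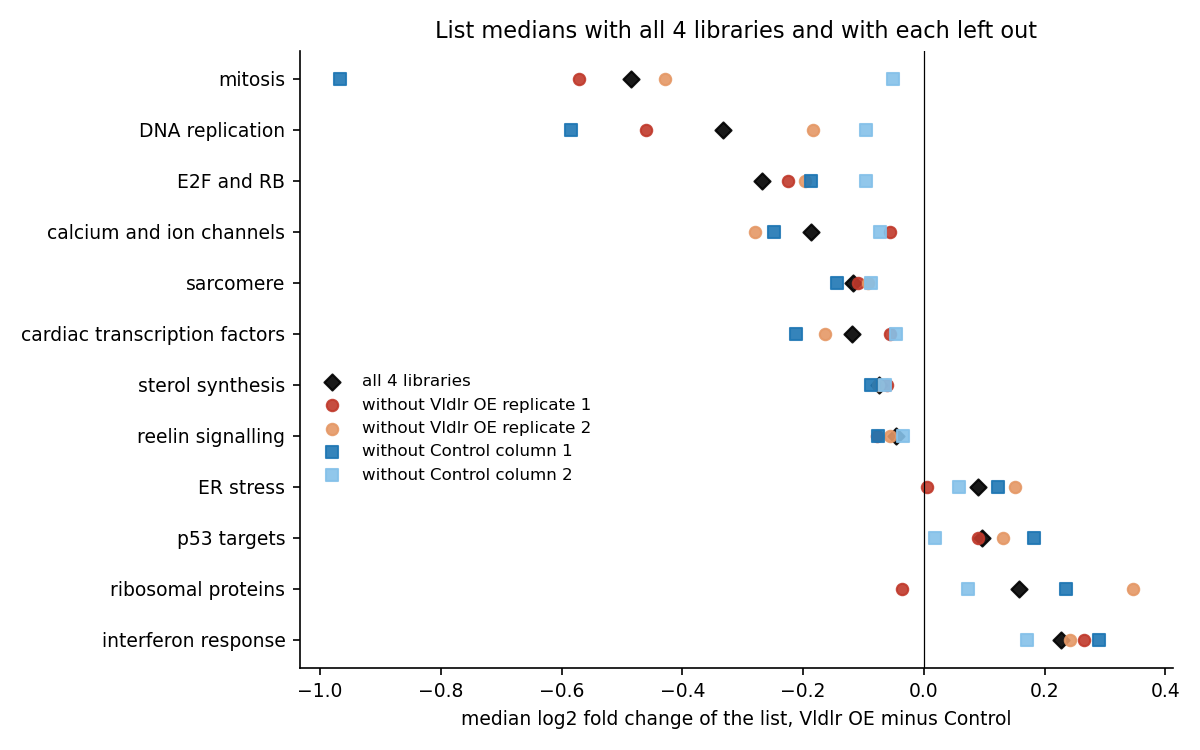
Median log2 fold change of 12 gene lists (horizontal) with all 4 libraries (diamonds) and with each library left out in turn. The mitosis median runs from -0.97 without Control column 1 to -0.05 without Control column 2, the ribosomal protein median changes sign without Vldlr OE replicate 1, and the interferon response median stays between 0.17 and 0.29.

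Knockdown of Vldlr in the same table, 2 si-Vldlr libraries against 2 of si-Control_v after 60 h with 50 nM of each siRNA, shares no library with the overexpression and allowed the effects to be compared. Time and delivery differed. Vldlr was lower there, with a log2 fold change of -0.52, and the difference between the 2 effects on Vldlr was 1.23 ± 0.26 (limma, unadjusted p = 0.000758, adjusted p = 0.719). A single gene had effects that differed past the threshold, again 0.00745% of those tested. It was Nefm, the medium neurofilament gene, at 5.65 and 5.62 CPM in Control and at 3.61 and 3.56 CPM in Vldlr OE, a log2 fold change of -0.53 ± 0.16. With si-Vldlr the log2 fold change of Nefm was 1.61, and the difference of the effects was -2.14 ± 0.23 (limma, adjusted p = 0.0317). No gene passed when either Vldlr OE replicate was left out, and 6 did without Control column 1.

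Across the other genes the effects of overexpression and knockdown were more often of the same sign than of opposite sign. Over 11117 genes averaging 5 CPM or more, 60.6% had the same sign, with Pearson's r of 0.26 and Spearman's rho of 0.30. These values run across genes, which are not independent replicates. The medians of the mitosis, DNA replication and interferon lists had the same sign in both comparisons: -0.49, -0.33 and 0.23 with overexpression and -0.33, -0.18 and 0.48 with knockdown. Those of the sterol synthesis list had opposite signs, at -0.07 and 0.21. No difference between these medians was tested. Without Control column 2 the medians with overexpression were -0.05 for mitosis and -0.10 for DNA replication. The interferon list was highest in the si-Control_v and si-Vldlr libraries, so its changes in the comparisons began from different levels.

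**Figure D5:**
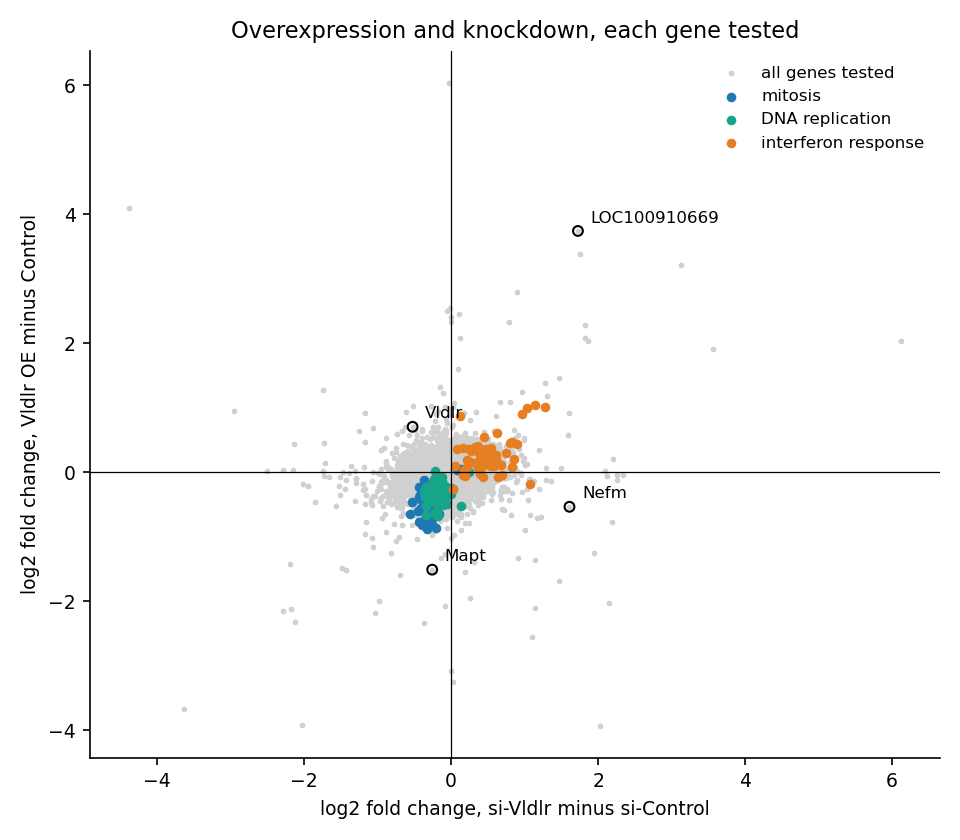
Log2 fold change of each gene tested with Vldlr overexpression (vertical) against that with Vldlr knockdown (horizontal). Mitosis and DNA replication genes gather below and left of the origin, interferon response genes above and right of it, and Vldlr and Nefm lie in the regions of opposite sign.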

How the data were processed

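RNA sequencing of 12 rat cardiomyocyte libraries was deposited as 1 table of CPM values; per the submitters' processing notes the tools included edgeR 3.20.9, HISAT2 2.1.0 and StringTie 1.3.4, and the build was rn6, with no roles given. The deposited CPM sum to 1000000 in each library. In the 4 libraries 98.5% to 99.1% of values lie within 0.05 of whole multiples of a smallest step, 78069063 to 83830618 steps a library, but the worth of a step in reads is unknown, so no count test was run and no counting interval is given.

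Differences were tested with limma 3.58.1 in R 4.3.3 on log2(CPM + 1) values (a pseudocount of 1) with the prior variance following mean level, 1 mean for each of the 6 groups of the table (6 residual degrees of freedom) and calls at an adjusted p under 0.05. Only genes with at least 1 CPM in 2 of the 4 libraries entered. The 4 rows with repeated, date-like names were left out. In data simulated for this comparison over 13426 genes, 91.0% of 2-fold, 50.7% of 1.5-fold and 100% of 4-fold changes were recovered, with 5 false calls. The changed genes were drawn only from better expressed genes outside the most variable ones, with noise independent from gene to gene. Deviations common to many genes of a library were not simulated, so these percentages need not hold for the real libraries.

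The comparison and the 44 gene lists, of which 24 were described, were chosen with earlier results of these data known. Lists carry no test. Named genes were Vldlr, Reln and Thbs1, every called gene, the 12 genes of smallest p in each direction whose mean reached 10 CPM in either group, no overlap, no passage between 0 and 5 CPM within a group and a full symbol, and the 4 members of smallest p of each described list. Lrp8, Dab1, Dab2, Gata4, Tnnt2 and members named only to complete a count were added after their values were seen. A few genes that the rule names are not reported here. Vldlr was counted in the LDL receptor family only. Alternatives were the pseudocount, filter, scaling, libraries fitted, trend, array weights, column number as a block and each library left out. Promoters were matched by symbol; figures used matplotlib 3.10.9.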

Additional observations from a re-analysis of the deposited data

Results flagged for a closer look

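The effect on Nefm, which codes for the medium neurofilament protein, differed between overexpression and knockdown of Vldlr by a test of the difference itself: -2.14 on the log2 scale (limma interaction, adjusted p = 0.0317). Nefm was lower in both Vldlr OE libraries than in both Control columns and higher with si-Vldlr than with si-Control_v. All values were low, at 3.56 to 5.65 CPM in the 4 libraries of the overexpression and 2.70 to 12.9 CPM in the other 8. No gene passed this test with no filter on low values, with quantile normalization, with array weights, with the column number as a replicate block or without either Vldlr OE replicate.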

How the results depend on the processing

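Of 2228 values under an alternative, 2160 kept their direction and their side of the threshold or moved by less than the spread. Part of this count was fixed in advance. The list medians were unchanged with the 4 libraries fitted alone, without the trend, with array weights and with the column block. The count of called genes was 1 under each pseudocount, filter, scaling, trend and weight tried. It was 8 with the 4 libraries fitted alone, 2 with the column number as a replicate block, and 2 to 262 with a library left out (262 without Vldlr OE replicate 2, 81 without Control column 1). The column numbers gave a correlation of 0.10 between deviations, and the Control columns carry no replicate number from the labels, so the block pairs columns by number alone. The count of genes whose effect differed from that of si-Vldlr was 0 with no filter, with quantile normalization, with array weights and with the replicate block, and 0 to 6 with a library left out (6 without Control column 1, 0 without either Vldlr OE replicate). With a library left out Vldlr ran from 0.41 to 1.01 and the mitosis median from -0.97 to -0.051. The sarcomere median was -0.085 by median-of-ratios scaling, which moved the median of all genes to above 0. These genes changed sign with a library left out: Reln (-0.40 to 0.89), Thbs1 (-0.093 to 0.15), Lrp4 (-0.41 to 0.013), Itgav (-0.29 to 0.040), Calr (-0.059 to 0.22), Sdc1 (-0.046 to 0.21) and Cdkn2c (-0.83 to 0.0055). The cause was not tested. With 2 libraries a side and depth in reads unknown, small changes and low genes could not be resolved, and leaving out 1 library assumes that the lone partner varies like the other groups.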
